A study of Mus musculus with 32 samples.

Results

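Collagen chains were taken as all genes whose symbol in the deposited table is Col, a type number, the letter a and a chain number. This rule gave 43 of 24952 genes, and no expression value entered it. By structure they were grouped as 11 fibrillar chains, 9 fibril-associated collagens with interrupted triple helices (FACITs), 6 type IV chains of the basement membrane, 6 type VI chains, 3 transmembrane chains, 3 short-chain network formers, 2 multiplexins, 1 anchoring fibril chain and 2 others. RNA had been sequenced from laser-captured regions of the tibialis anterior (TA) of male, wild-type C57BL/6JRj mice aged 10 or 30 months, housed singly on an AIN93M diet. Regions with a neuromuscular junction (NMJ) were compared with extra-synaptic regions (xNMJ), which gave 8 libraries each of 10m NMJ, 30m NMJ, 10m xNMJ and 30m xNMJ. The older mice had also been on the diet for longer, so age and time on the diet cannot be told apart. NMJs had been recognized with labeled α-bungarotoxin, which binds acetylcholine receptors, and many regions were pooled per library. The labels do not say whether every library came from a separate mouse, so p values measure the spread between libraries.

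Library totals lay between 4026648 and 16516788 counts, with group medians of 6062117 (10 months) and 6790011 (30 months) for xNMJ and of 9605869 and 9825357 for NMJ. Levels are given on a pair of scales. Counts scaled by TMM to a common library size (CPM), on which the groups were compared, are read across libraries for 1 chain at a time. Length-scaled transcript shares of each library (TPM), which also allow for transcript length, are used to compare chains with each other. A floor of 3 counts equaled 0.153 to 0.933 CPM, and levels below it were taken as not detectable at this depth. Floors and intervals from counts cover counting error only. A library holds the RNA of fibers and of the cells between them, so that fewer cells of a type and less RNA per cell cannot be told apart. Fiber genes were abundant in every group, although 3 of 4 at 10 months and 4 of 4 at 30 months were lower in NMJ, with median sums over Acta1, Ckm, Mylpf and Tnnt3 of 80816 and 90777 TPM in xNMJ at 10 and 30 months and of 74423 and 75782 TPM in NMJ.

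One library stood apart. In 30m xNMJ replicate 5, 6 genes of synaptic fiber nuclei summed to 144 TPM, while the other xNMJ libraries lay between 4.49 and 13.0 TPM and the NMJ libraries between 535 and 1192 TPM. All 6 rose in NMJ at both ages. This library was also the deepest xNMJ library, with 13182475 counts, and the only xNMJ library with a positive value on the first principal component. Its sum over all collagen chains was 39.6 TPM, close to the median of its group of 38.5 TPM. For comparisons with this group, calls and the main values are also given without it.

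Collagens are trimers of α chains wound into a triple helix. Fibrillar collagens build the cables of the endomysium, FACITs sit on their surface, type IV collagen forms the sheet of the basal lamina around each fiber, and type VI collagen forms beaded filaments that tie the lamina to the fibrils. Transmembrane collagens span the cell membrane, and multiplexins bridge basal laminae and the tissue around them. The basal lamina of the synaptic cleft differs from that of the rest of the fiber in its laminin and collagen chains, and Col13a1, made by the fiber, is needed for the maturation of the endplate.

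Of the 43 genes, 34 had a promoter window in the RefSeq tables (build GRCm38.p6, 250 bases before to 50 after the start). The bases before the start are shown for Col20a1 and Col13a1, which did not overlap between the regions at either age. Col1a2 and Col19a1, which did not overlap either, are not shown. They had no window, or one that held annotated exon bases of the gene itself. The bases shown run 5′ to 3′ on the strand of the gene, from chr2:180986285-180986534 on the plus strand for Col20a1 and from chr10:61979109-61979358 on the minus strand for Col13a1. Capitals mark TATAAA or the E-box CANNTG, on either strand.
Col20a1: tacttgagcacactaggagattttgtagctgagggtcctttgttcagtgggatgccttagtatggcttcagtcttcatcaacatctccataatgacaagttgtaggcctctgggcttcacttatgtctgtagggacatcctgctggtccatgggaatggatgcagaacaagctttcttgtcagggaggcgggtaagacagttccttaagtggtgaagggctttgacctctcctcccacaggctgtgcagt
Col13a1: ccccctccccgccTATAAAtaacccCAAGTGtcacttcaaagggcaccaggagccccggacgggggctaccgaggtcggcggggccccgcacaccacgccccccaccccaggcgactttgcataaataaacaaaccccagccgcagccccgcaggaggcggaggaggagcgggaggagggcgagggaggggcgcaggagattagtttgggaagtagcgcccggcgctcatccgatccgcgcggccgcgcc
Col13a1 held 1 match to TATAAA and 1 to CANNTG in these bases, and Col20a1 held neither. Collagen windows were counted once per gene, whereas all 32851 windows of this length were counted as listed, so the units can differ. Of all windows, 13.6% held TATAAA, against 5 of the 34 collagen windows. CANNTG was found in 72.3% of all windows and in 18 of the 34. CCGGAA, the core of the N-box known from promoters of acetylcholine receptor subunits, was in 14.9% of all windows and in 0 of the 34. A match is only a match of letters. In the annotation used (GENCODE M21, GRCm38), exons of the noncoding BX649560.1 share 79 bases with exons of Col20a1 on the same strand, and the window printed for Col20a1 also holds exon bases of it.

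In TPM, a single FACIT chain made up the largest share of collagen RNA at the NMJ. Col20a1 had a mean of 146 ± 42.4 TPM (SD, n = 8) in 10m NMJ and 137 ± 38.2 TPM in 30m NMJ. These were 39.8% and 46.1% of the mean sum over all chains. In CPM, which does not allow for length, its share was 8.26% and 10.6%, and it came after Col3a1, Col4a1 and Col1a2 in 10m NMJ and after Col4a1 and Col1a2 in 30m NMJ. In 10m NMJ, Col20a1 had a mean of 64.3 CPM beside 146 TPM, and Col3a1 118 CPM beside 37.8 TPM. Annotated exons cover 5142 bases for Col20a1 and 9816 for Col3a1, which differ by less than the scales do. The share of Col20a1 in TPM thus depends on the transcript lengths used by the authors, and their part was not tested. In xNMJ the mean of Col20a1 was 0.0419 ± 0.118 TPM at 10 months and 2.02 ± 2.99 TPM at 30 months, or 0.0891% and 4.79% of the sum. Without 30m xNMJ replicate 5 the latter mean was 1.23 TPM, or 2.89% of the sum. The chains that followed in 10m NMJ were Col3a1 with 37.8 ± 7.99, Col1a2 with 26.6 ± 7.76, Col4a1 with 23.1 ± 7.34 and Col15a1 with 20.8 ± 5.34 TPM. Given their SDs, Col1a2, Col4a1 and Col15a1 lay within the spread of each other. Outside the NMJ the order was led by Col4a1, the main chain of the basal lamina, with 9.19 ± 4.86 TPM at 10 and 8.91 ± 2.89 TPM at 30 months. Col3a1 came second there at 10 months, with 6.76 ± 2.92 TPM. Its 30-month mean of 4.81 ± 9.15 TPM rested on replicate 1, without which it was 1.63 TPM, below Col1a2 (3.46), Col1a1 (2.72), Col26a1 (2.57), Col4a2 (2.50) and Col20a1 (2.31 TPM).

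Summed over all 43 chains, collagen RNA ranged from 22.0 to 62.2 TPM with a median of 49.3 in 10m xNMJ, and from 255 to 455 TPM with a median of 404 in 10m NMJ. At 30 months the sums ranged from 29.6 to 81.6 TPM (median 38.5) in xNMJ and from 179 to 378 TPM (median 302) in NMJ. No NMJ library overlapped with any xNMJ library of its age. The mean was 7.82 times as high in NMJ as in xNMJ at 10 months and 7.0 times at 30 months (6.94 times without replicate 5), or 3.68 and 2.93 times in CPM. The TPM ratios include a shift of scale that the CPM ratios do not, since with library totals the median gene lay 0.55 (10 months) and 0.63 (30 months) higher on the log2 scale in NMJ than after TMM scaling. Without Col20a1 the median sums were 49.3 and 223 TPM at 10 months and 35.2 and 167 TPM at 30 months, and at 30 months the lowest NMJ library (77.4 TPM) then lay below the highest xNMJ library (81.6 TPM).

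**Figure D1:**
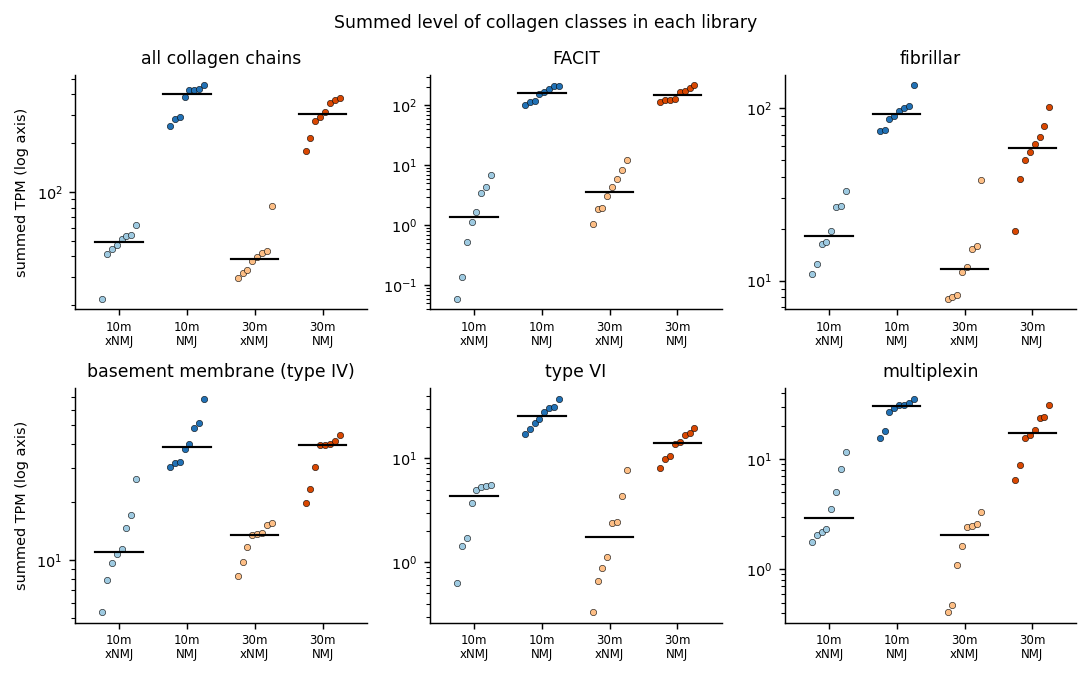
Summed TPM (log axis) of all collagen chains and of 5 classes, with 1 point per library and a line at the median of each group of 8. For all chains together, the 10m NMJ libraries lie between 255 and 455 TPM and the 10m xNMJ libraries between 22.0 and 62.2 TPM.

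By class, FACIT chains had the widest gap in TPM over all libraries. In CPM at 10 months, and in TPM without 10m xNMJ replicate 1, the ratio of transmembrane chains was higher (24.5 against 15.0, and 85.4 against 80.9). The mean sum of the FACIT chains was 159 ± 43.6 TPM in 10m NMJ against 2.28 ± 2.42 in 10m xNMJ, and 156 ± 38.7 against 4.86 ± 3.85 at 30 months. In NMJ nearly all of it was Col20a1. Without Col20a1 the class had means of 13.0 against 2.24 TPM and of 19.6 against 2.84 TPM. Type VI chains were 7.30 and 5.57 times as high in NMJ as in xNMJ at 10 and 30 months, multiplexins 6.01 and 10.0 times, fibrillar chains 4.66 and 4.07 times and type IV chains 3.29 and 2.74 times. The fibrillar sum in NMJ ranged from 73.4 to 136 TPM at 10 months and from 19.4 to 102 TPM at 30 months, so the ages overlapped. The type IV sum in NMJ had medians of 38.7 TPM at 10 and 39.3 TPM at 30 months. Without 30m xNMJ replicate 5 the 30-month ratios of these classes were 6.22 for type VI, 10.6 for multiplexins, 3.94 for fibrillar and 2.65 for type IV chains.

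The smaller classes gave ratios that were less steady. Short-chain network formers were 4.29 and 2.32 times as high in NMJ as in xNMJ. Transmembrane chains were 37.5 and 6.91 times as high, but near 0 in xNMJ, so that the first ratio rose to the 85.4 given above and the second was 13.6 without 30m xNMJ replicate 7. The level of that replicate 7 came from chains too low to judge. The anchoring fibril chain, Col7a1, was 2.93 and 1.75 times as high in mean TPM, but 1.25 and 0.768 times as high in mean CPM, so that its direction at 30 months turned with the scale.

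For tests per chain, 32 of the 43 had at least 1 CPM in at least 8 libraries. At 10 months, 20 of these 32 rose at the NMJ and 0 fell (edgeR quasi-likelihood test, Benjamini-Hochberg adjusted p under 0.05). Among all 13990 genes tested, 6.5% rose and 5.05% fell. The average insert size in the labels moved with the regions, with medians of 93.5 bases in xNMJ and 117.5 in NMJ at 10 months and of 96 and 107 at 30 months, and with insert size as a covariate 15 chains rose at 10 months. The median log2 fold change of the chains was 2.19, beside 0.00 for all genes, and 31 of 32 had a value above 0. Of the 43 chains, 17 reached 1 CPM in 8 libraries within xNMJ alone. The other tested chains passed the filter only with their NMJ levels, so they had little room to come out lower in NMJ. The counts, the medians and the absence of lower chains rest in part on them. At neither age did a chain with a lower value in NMJ have an unadjusted p under 0.05, and DESeq2 called 0 chains lower as well. At 30 months, 11 of 32 rose and 0 fell, with 5% and 4.25% of all genes as background. The median was then 1.82, beside −0.01. Medians were the same with Col4a5 set at its lower bound given below. With library totals in place of TMM, 26 and 20 chains rose, while calls over all genes went from 909 higher and 706 lower to 2667 and 210 at 10 months, and from 700 and 595 to 2692 and 75 at 30 months.

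Both ages together called 9 chains: Col1a2, Col4a2, Col5a2, Col6a2, Col13a1, Col15a1, Col18a1, Col19a1 and Col20a1. Another 11 passed at 10 months alone and 2 (Col11a1 and Col16a1) at 30 months alone, whereas 10 passed at neither age. That a chain passed at 1 age does not show that the ages differ. The interaction of age and region called 0 chains and 0% of all genes with edgeR, although 4 chains and 708 of all genes had an unadjusted p under 0.05, and DESeq2 called 1 chain, Col20a1 (log2 difference −4.99, adjusted p = 0.0074), and 10 of all genes (0.0715%). Without 30m xNMJ replicate 5, 12 chains rose at 30 months, namely the 11 and Col6a1, beside 6% of all genes, and the log2 fold changes of the 32 chains moved by −0.25 (Col9a2) to 1.11 (Col9a1). Every NMJ library lay above every xNMJ library for 8 chains at 10 months, against 2.22% of all genes, and for 7 chains at 30 months, against 1.96%, or for 8 chains, with Col6a2, without replicate 5. Both sets held Col1a2, Col13a1, Col19a1 and Col20a1.

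**Figure D2:**
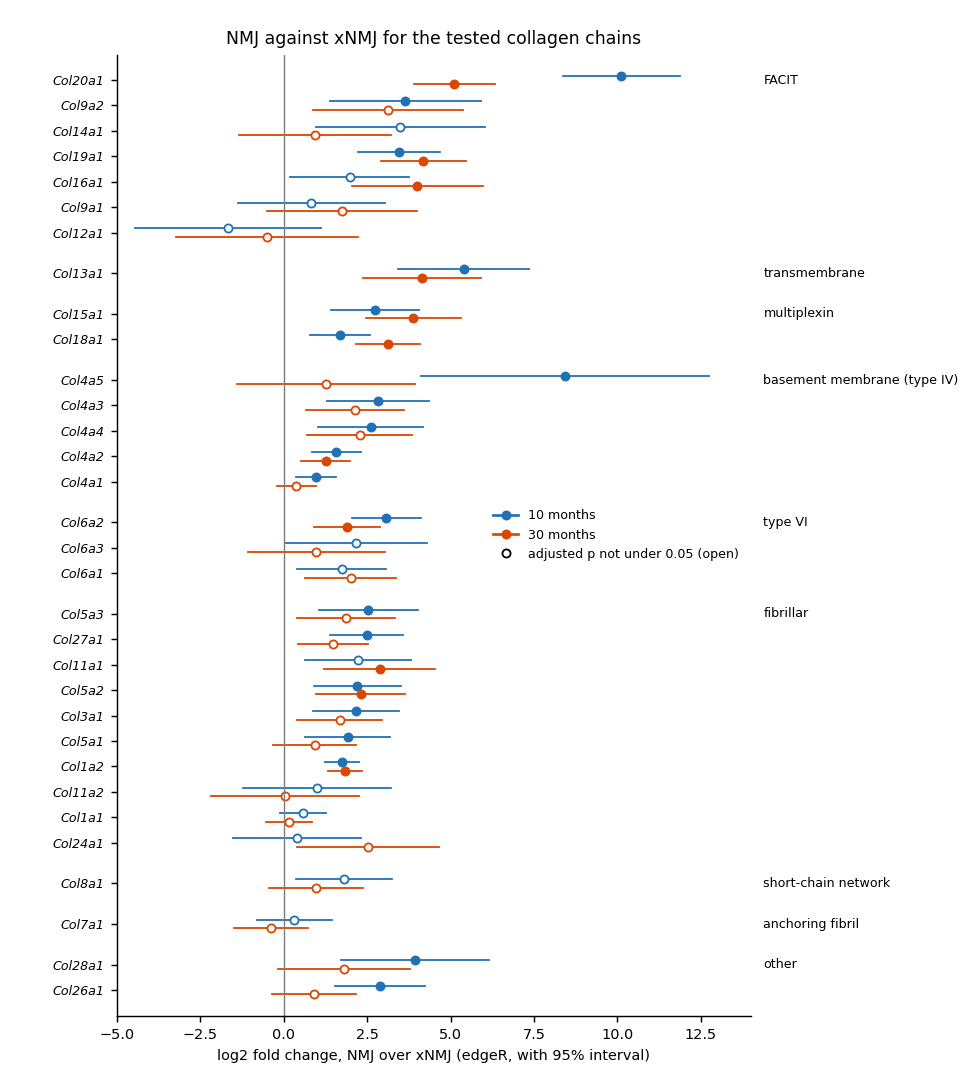
Log2 fold change of NMJ over xNMJ with its 95% interval for the 32 tested chains, by class, at 10 months (blue) and 30 months (orange); filled points have an adjusted p under 0.05. The 20 filled points at 10 months and the 11 at 30 months all lie above 0; the values of Col20a1 and Col4a5 at 10 months depend on the prior count of the fit, since xNMJ had 2 and 0 counts.

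Among the FACITs, Col20a1 (ENSMUSG00000016356, chromosome 2 from 180986535 to 181018363, plus strand) came close to an on-off pattern. Its level was 44.5, 60.4 and 88.1 CPM (lowest, median and highest library) in 10m NMJ, whereas 7 of the 8 10m xNMJ libraries held 0 counts and replicate 4 held 2. The ratio of summed counts was 1400, with a 95% counting interval from 387 to 11564 (edgeR adjusted p = 8.7e-10). At 30 months, NMJ libraries had 43.7, 51.8 and 82.6 CPM. The 30m xNMJ libraries had 0, 0.291 and 5.49 CPM, with 62 counts in replicate 5, 24 in replicate 2, 6 in replicate 4 and 2 in replicate 6. All NMJ libraries were therefore above all xNMJ libraries at both ages. The log2 fold change at 30 months was 5.11 (SE 0.60, adjusted p = 3.2e-07), and 5.91 without replicate 5.

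Col19a1, a chain known from inhibitory synapses in the brain (ENSMUSG00000026141, chromosome 1 from 24261890 to 24587472, minus strand), had 0, 1.27 and 2.56 CPM in 10m xNMJ and 3.56, 10.1 and 36.0 CPM in 10m NMJ. At 30 months it had 0.206, 1.31 and 2.47 CPM in xNMJ and 10.0, 17.7 and 46.8 CPM in NMJ. The regions did not overlap at either age, although levels varied widely within 10m NMJ. The log2 fold changes were 3.46 (SE 0.61, adjusted p = 1.2e-04) and 4.19 (SE 0.62, adjusted p = 1.7e-05, or 4.01 without replicate 5). Col16a1, which links fibrils to other matrix proteins, had 0, 0.690 and 8.05 CPM in 10m xNMJ against 0.290, 7.60 and 11.5 in 10m NMJ. Its groups overlapped at this age (log2 fold change 1.97, adjusted p = 0.16). At 30 months they did not, with 0, 0.411 and 3.34 CPM in xNMJ, 6.01, 11.7 and 27.2 CPM in NMJ and a log2 fold change of 4.0 (SE 0.96, adjusted p = 0.0050, or 3.92 without replicate 5). For Col16a1 the difference between the ages did not pass the interaction test (log2 difference 2.03, 95% interval −0.48 to 4.55, unadjusted p = 0.11).

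Col9a2, a partner of fibrils in cartilage, passed at 10 months (log2 fold change 3.64, adjusted p = 0.026) with a highest NMJ level of 7.44 CPM, and had an adjusted p of 0.052 without 10m NMJ replicate 1. Its value at 30 months was 3.11 (adjusted p = 0.074). Col14a1, Col9a1 and Col12a1 passed at neither age. Col12a1, a FACIT of tendon and fascia, had the only fold change below 0 at 10 months, at −1.67 (SE 1.37, adjusted p = 0.51), with 6 of the 8 10m xNMJ libraries at 0 and a highest xNMJ value of 7.78 CPM.

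The 1 transmembrane chain that could be tested was Col13a1 (ENSMUSG00000058806, chromosome 10 from 61838236 to 61979108, minus strand). In 10m xNMJ, 6 libraries held 0 counts and the highest level was 1.56 CPM, while 10m NMJ had 2.16, 8.62 and 17.3 CPM. At 30 months the xNMJ libraries had 0, 0.133 and 1.86 CPM and the NMJ libraries 2.72, 7.68 and 20.1 CPM. Each NMJ library was above each xNMJ library of its age. The log2 fold changes were 5.39 (SE 0.96, adjusted p = 1.6e-04) and 4.14 (SE 0.87, adjusted p = 0.0015, or 4.03 without replicate 5).

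Both multiplexins rose at both ages. Col15a1 (ENSMUSG00000028339, chromosome 4 from 47208161 to 47313167, plus strand), which lies in the outer basement membrane of muscle fibers and vessels, had 0.236, 3.38 and 31.1 CPM in 10m xNMJ and 28.5, 49.7 and 61.9 CPM in 10m NMJ. The levels at 30 months were 0, 0.575 and 5.22 CPM in xNMJ and 7.03, 23.1 and 38.7 CPM in NMJ. Only the highest 10m xNMJ library reached into the range of NMJ. Log2 fold changes were 2.73 (SE 0.65, adjusted p = 0.0036) and 3.88 (SE 0.70, adjusted p = 2.5e-04, or 4.54 without replicate 5). Col18a1 (ENSMUSG00000001435, chromosome 10 from 77052178 to 77166548, minus strand), the source of endostatin, had 1.73, 4.29 and 10.4 CPM in 10m xNMJ and 6.84, 16.4 and 30.3 CPM in 10m NMJ, with overlap at the ends. Its 30-month levels were 0.355, 1.75 and 5.31 CPM in xNMJ and 7.09, 16.6 and 22.4 CPM in NMJ, without overlap. The log2 fold change was 1.69 (SE 0.44, adjusted p = 0.0078) at 10 months and 3.13 (SE 0.47, adjusted p = 2.0e-05, or 3.63 without replicate 5) at 30 months. The interaction for Col18a1 was 1.44 (95% interval 0.19 to 2.69, unadjusted p = 0.026, adjusted p = 0.88).

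**Figure D3:**
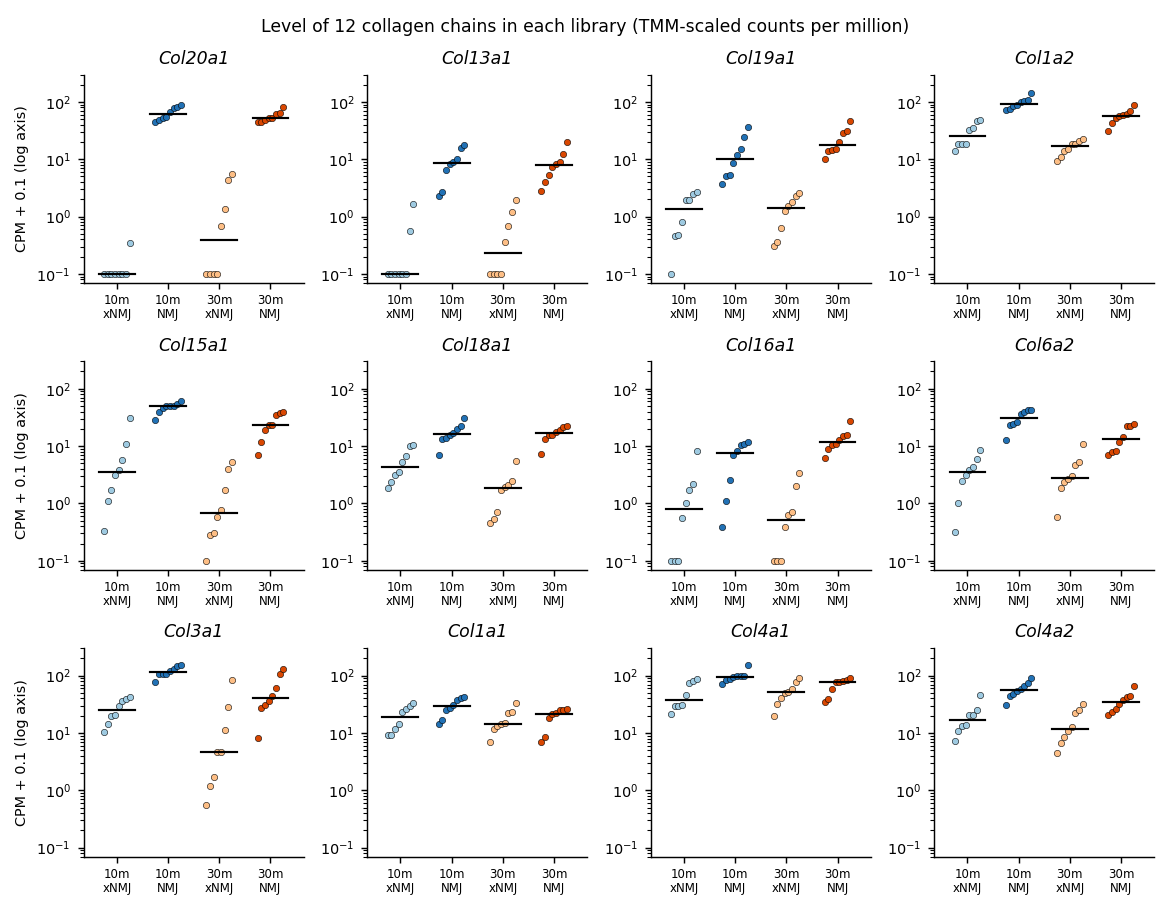
CPM plus 0.1 (log axis) of 12 chains, with 1 point per library and a line at the median of each group of 8. Col20a1 and Col13a1 sit near 0 in most xNMJ libraries, whereas Col1a1 and Col4a1 overlap between NMJ and xNMJ at both ages.

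All 5 type IV chains that could be tested rose at 10 months, and Col4a2 alone of them passed at 30 months. With insert size as a covariate, Col4a1 and Col4a4 no longer passed at 10 months. With the replicate block, Col4a3 and Col4a4 passed at 30 months as well. Col4a1 and Col4a2 form the common basement membrane trimer and lie head to head on chromosome 8, with starts at 11312826 on the minus and 11312805 on the plus strand, so that their transcripts share 22 bases. Col4a1 (ENSMUSG00000031502) had 21.5, 37.5 and 86.9 CPM in 10m xNMJ and 70.8, 96.4 and 150 CPM in 10m NMJ. Its log2 fold change was 0.97 (SE 0.29, adjusted p = 0.024), which was the smallest among the chains that passed. Leaving out 10m xNMJ replicate 1, 5, 6 or 8 or 10m NMJ replicate 2 brought the adjusted p of Col4a1 to between 0.052 and 0.062. At 30 months the regions overlapped widely for Col4a1, with 19.4, 50.9 and 89.8 CPM in xNMJ, 34.9, 78.6 and 91.2 CPM in NMJ and a log2 fold change of 0.37 (SE 0.29, adjusted p = 0.52).

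Col4a2 (ENSMUSG00000031503) had 7.13, 16.9 and 45.7 CPM in 10m xNMJ and 30.1, 55.7 and 92.4 CPM in 10m NMJ (log2 fold change 1.58, SE 0.36, adjusted p = 0.0029). At 30 months it had 4.34, 11.7 and 31.9 CPM in xNMJ and 20.6, 35.0 and 65.7 CPM in NMJ (log2 fold change 1.26, SE 0.36, adjusted p = 0.020, or 1.36 without replicate 5). All 8 NMJ libraries lay above the xNMJ median at both ages, with some overlap at the ends. Without 30m NMJ replicate 6 the 30-month adjusted p of Col4a2 was 0.060. The ratio of Col4a1 to Col4a2 in TPM had medians of 3.23 and 5.16 in xNMJ at 10 and 30 months and of 1.68 and 2.16 in NMJ.

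Col4a3, Col4a4 and Col4a5 form the chain sets known from the glomerulus and from the synaptic part of the muscle basal lamina. Col4a3 had 0.124, 1.04 and 11.8 CPM in 10m xNMJ and 4.67, 19.2 and 25.9 CPM in 10m NMJ, and Col4a4 rose from a median of 1.59 to one of 12.2 CPM. Their log2 fold changes were 2.84 (adjusted p = 0.0095) and 2.61 (adjusted p = 0.022) at 10 months, and 2.14 (adjusted p = 0.056) and 2.27 (adjusted p = 0.057) at 30 months. Col4a3 shares 563 exon bases with C430014B12Rik on the other strand, which unstranded reads cannot separate. Col4a5 (ENSMUSG00000031274, chromosome X from 141475385 to 141689234, plus strand) was at 0 in all 8 10m xNMJ libraries and had 0, 3.12 and 17.1 CPM in 10m NMJ. Its mean there was at least 7.79-fold higher, against a floor of 3 counts in each xNMJ library (edgeR adjusted p = 0.0072). In the 30-month groups it had 0, 0 and 11.4 CPM in xNMJ and 0, 2.08 and 14.8 CPM in NMJ (log2 fold change 1.26, SE 1.30, adjusted p = 0.65). The single 30m xNMJ library at 11.4 CPM was replicate 4, and the next had 0.446 CPM.

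Of the type VI chains, which assemble from Col6a1, Col6a2 and a longer partner, Col6a2 passed at both ages. Col6a2 (ENSMUSG00000020241, chromosome 10 from 76595762 to 76623630, minus strand) had 0.224, 3.37 and 8.60 CPM in 10m xNMJ and 12.8, 31.3 and 43.2 CPM in 10m NMJ, without overlap (log2 fold change 3.07, SE 0.51, adjusted p = 5.9e-05). At 30 months it had 0.481, 2.72 and 10.9 CPM in xNMJ and 6.79, 13.0 and 23.8 CPM in NMJ (log2 fold change 1.9, SE 0.49, adjusted p = 0.0083). The overlap at 30 months came from the highest xNMJ library, and without replicate 5 the value was 2.36 (adjusted p = 0.0011).

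Col6a1, its neighbor on chromosome 10, had 0, 4.93 and 19.0 CPM in 10m xNMJ and 5.44, 28.8 and 39.2 CPM in 10m NMJ. The log2 fold change of 1.73 (SE 0.66, adjusted p = 0.090) did not pass. At 30 months Col6a1 had 0, 1.33 and 13.0 CPM in xNMJ and 10.8, 14.5 and 19.2 CPM in NMJ (2.01, SE 0.68, adjusted p = 0.056). All 8 NMJ libraries were above the xNMJ median at each age. The call for Col6a1 hung on single libraries, since the adjusted p was 0.045 or 0.049 at 10 months without 10m xNMJ replicate 4 or 7, and 0.012 to 0.047 at 30 months without 10m xNMJ replicate 8 or 30m xNMJ replicate 1 or 5. Col6a3, the longer partner, had 0, 0.228 and 6.14 CPM in 10m xNMJ and 1.12, 4.87 and 8.16 CPM in 10m NMJ (2.16, SE 1.04, adjusted p = 0.21, or 0.023 without 10m xNMJ replicate 3). At 30 months Col6a3 had 0, 0.369 and 5.76 CPM in xNMJ and 0, 1.25 and 7.59 CPM in NMJ (0.97, SE 1.01, adjusted p = 0.65). Col6a4, Col6a5 and Col6a6, the alternatives to Col6a3, were too low to judge.

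Within the fibrillar class, 6 of 10 tested chains rose at 10 months and 3 at 30 months, and all 10 had a fold change above 0 at each age. Calls differed between the chains of type I collagen, although the difference between those chains was not tested. Col1a2 (ENSMUSG00000029661, chromosome 6 from 4504814 to 4541544, plus strand), the second chain of type I collagen, had 13.7, 25.1 and 48.2 CPM in 10m xNMJ and 72.1, 93.2 and 140 CPM in 10m NMJ. The levels at 30 months were 9.37, 16.7 and 22.7 CPM in xNMJ and 30.8, 57.6 and 88.2 CPM in NMJ. No libraries overlapped at either age, and its 30-month log2 fold change was 1.83 (SE 0.26, adjusted p = 6.3e-06, or 1.92 without replicate 5), beside 1.75 (SE 0.25, adjusted p = 8.4e-06) at 10 months.

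Col1a1 (ENSMUSG00000001506, chromosome 11 from 94936224 to 94953042, plus strand), the first chain of the same trimer, had 9.09, 18.6 and 32.8 CPM in 10m xNMJ and 14.2, 28.9 and 41.5 CPM in 10m NMJ. At 30 months it had 6.73, 14.5 and 32.7 CPM in xNMJ and 6.82, 21.7 and 26.0 CPM in NMJ. Its regions overlapped at both ages, and the log2 fold changes of 0.59 (95% interval −0.10 to 1.27, adjusted p = 0.31) and 0.16 (95% interval −0.53 to 0.84, adjusted p = 0.85) did not pass. With library totals in place of TMM, Col1a1 passed at 10 months. In TPM, the median ratio of Col1a1 to Col1a2 was 0.590 and 0.855 in xNMJ at 10 and 30 months, and 0.307 and 0.306 in NMJ. The ratio was below 1 in all 16 NMJ libraries, in 7 of 8 10m xNMJ and in 5 of 8 30m xNMJ libraries.

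Col3a1 (ENSMUSG00000026043, chromosome 1 from 45311538 to 45349706, plus strand), the fibril collagen of pliable tissue, had 10.2, 24.8 and 42.5 CPM in 10m xNMJ and 78.2, 113 and 154 CPM in 10m NMJ. At 10 months the groups did not overlap (log2 fold change 2.16, SE 0.63, adjusted p = 0.020). At 30 months it varied widely, with 0.446, 4.55 and 85.3 CPM in xNMJ and 8.23, 40.0 and 128 CPM in NMJ (1.68, SE 0.63, adjusted p = 0.092). The highest of these xNMJ libraries was replicate 1, without which the value for Col3a1 was 2.86 (adjusted p = 0.0011).

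Col27a1 (ENSMUSG00000045672, chromosome 4 from 63214004 to 63334991, plus strand), a fibrillar chain of cartilage, had 0.346, 2.06 and 5.33 CPM in 10m xNMJ and 6.01, 13.3 and 17.7 CPM in 10m NMJ, without overlap (log2 fold change 2.49, SE 0.54, adjusted p = 0.0016). Its 30-month levels were 0.822, 2.87 and 13.5 CPM in xNMJ and 6.42, 12.1 and 18.6 CPM in NMJ (1.47, SE 0.52, adjusted p = 0.068). Type V chains set the diameter of fibrils. Col5a1, Col5a2 and Col5a3 had log2 fold changes of 1.92 (adjusted p = 0.041), 2.21 (adjusted p = 0.019) and 2.53 (adjusted p = 0.018) at 10 months. At 30 months Col5a2 passed (2.31, adjusted p = 0.019, but 0.069 in a fit of the 30-month groups alone), whereas Col5a1 (0.92, adjusted p = 0.43) and Col5a3 (1.86, adjusted p = 0.11) did not. The 10-month call of Col5a1 was lost (adjusted p 0.052 to 0.077) without any 1 of 10m xNMJ replicates 1, 2, 5, 6 and 7 or 10m NMJ replicates 2, 3, 4, 6 and 7. Col11a1, better known from cartilage, had at most 1.83 CPM in xNMJ and passed at 30 months (2.88, adjusted p = 0.019, beside 2.22 and 0.062 at 10 months). Col11a2 and Col24a1 passed at neither age.

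Among the remaining chains, Col26a1 (ENSMUSG00000004415, chromosome 5 from 136741759 to 136883209, minus strand) had 0.115, 0.647 and 1.39 CPM in 10m xNMJ and 0.879, 2.68 and 15.6 CPM in 10m NMJ (log2 fold change 2.89, SE 0.66, adjusted p = 0.0027). In this pair of groups 7 of 8 NMJ libraries exceeded every xNMJ library. At 30 months Col26a1 had 0.178, 0.960 and 2.68 CPM in xNMJ and 1.11, 1.82 and 7.45 CPM in NMJ (0.91, SE 0.62, adjusted p = 0.44). Col28a1, a chain known from peripheral nerve, passed at 10 months (3.95, adjusted p = 0.013), with no 10m xNMJ library above the floor and 5 of 8 10m NMJ libraries above it. The call of Col28a1 was lost with the replicate block and with insert size as a covariate. Its 30-month value was 1.80 (adjusted p = 0.30). Col7a1, which anchors epithelia, and Col8a1, a short-chain network former of vessels, passed at neither age. Col7a1 had 2.08, 5.79 and 16.7 CPM in 10m xNMJ and 0.826, 11.3 and 23.0 CPM in 10m NMJ (0.32, adjusted p = 0.78). At 30 months Col7a1 had 2.16, 7.84 and 16.6 CPM in xNMJ and 1.04, 5.61 and 13.7 CPM in NMJ (−0.38, adjusted p = 0.76), so that the regions overlapped widely at both ages.

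Too low to judge were 11 chains, which did not reach 1 CPM in 8 libraries. Of the 32 libraries, those above the floor of 3 counts numbered 10 for Col4a6, 10 for Col8a2, 9 for Col25a1, 8 for Col9a3, 5 for Col22a1, 3 for Col6a6, 3 for Col17a1, 2 for Col2a1, 1 for Col10a1 and 0 for Col6a4 and Col6a5. Col25a1, a transmembrane chain needed for motor innervation during development, was at 0 in all 8 10m xNMJ libraries and above the floor in 4 of 8 10m NMJ libraries, with a highest level of 1.45 CPM there. At 30 months 2 of 8 xNMJ and 3 of 8 NMJ libraries were above the floor, and the highest level of all, 2.64 CPM, was in 30m xNMJ replicate 7. Col22a1, a marker of the myotendinous junction, was above the floor in 5 libraries and highest in 30m xNMJ replicate 1 with 7.40 CPM. Of the 153 counts of Col6a6, 106 came from 30m NMJ replicate 3. Col9a3 shares 234 exon bases with Tcfl5 on the other strand.

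Between 10 and 30 months, no chain passed the test within NMJ. There 0 of 32 chains and 0% of all genes passed with edgeR, DESeq2 and limma called 0 chains as well, and 2 chains and 372 of all genes had an unadjusted p under 0.05. Both of those chains, Col1a2 and Col6a2, had lower values at 30 months. Col1a2 had a log2 fold change of −0.73 (95% interval −1.23 to −0.23, unadjusted p = 0.0056, adjusted p = 1.0) and Col6a2 one of −1.08 (95% interval −2.03 to −0.13, unadjusted p = 0.028, adjusted p = 1.0). For each, all 8 30m NMJ libraries lay below the 10m NMJ median, though the groups overlapped. Over the 32 chains, 27 had a value below 0, with a median of −0.56, where 47.9% of all genes were below 0 with a median of 0.02. All 10 fibrillar chains were among them, with a median of −0.74, and so were all 3 type VI chains, with a median of −1.08. None of these values passed.

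Values for other abundant chains in NMJ were −1.10 for Col3a1 (95% interval −2.34 to 0.14), −0.60 for Col1a1 (−1.28 to 0.09), −0.52 for Col4a1 (−1.11 to 0.07) and −0.67 for Col4a2 (−1.39 to 0.05). Of the 7 FACITs tested, 4 had a value above 0, with the largest for Col16a1 at 1.05 (−0.64 to 2.74). Each of these intervals includes 0. Col20a1 and Col13a1, which did not overlap between the regions at either age, had values of −0.20 (−1.19 to 0.79) and −0.05 (−1.53 to 1.44) between the ages.

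**Figure D4:**
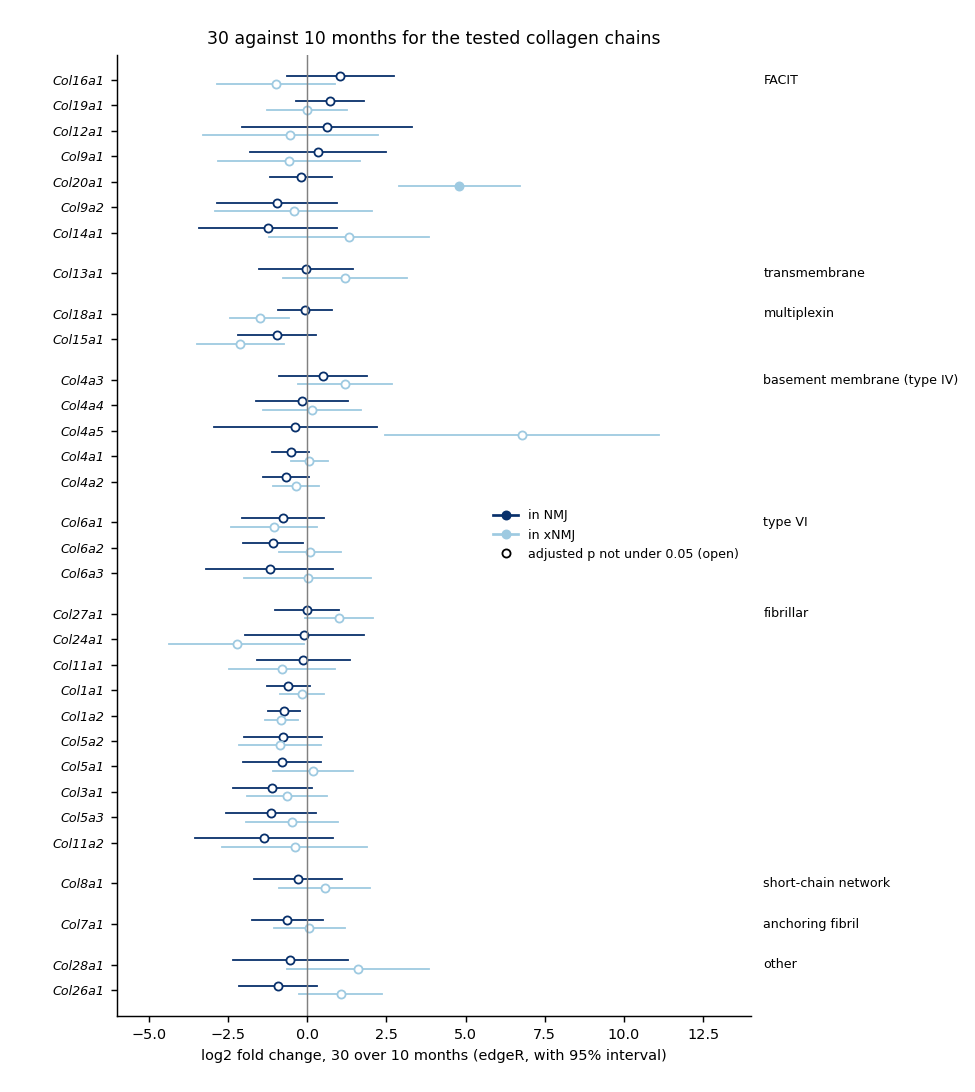
Log2 fold change of 30 over 10 months with its 95% interval for the 32 tested chains, by class, in NMJ (dark blue) and xNMJ (light blue); filled points have an adjusted p under 0.05. In NMJ 27 of the 32 points lie below 0 and none is filled, and in xNMJ only Col20a1 is filled; the value of Col4a5 in xNMJ depends on the prior count of the fit, since 10m xNMJ had 0 counts.

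Within xNMJ, 1 chain passed, Col20a1, where 0.0429% of all genes did, and 6 of 32 chains had an unadjusted p under 0.05, beside 1322 (9.45%) of all genes. Col20a1 had 2 counts over the 8 10m xNMJ libraries, and the ratio of summed counts was 46.9 (95% counting interval 12.6 to 393, adjusted p = 0.035). At 30 months 3 of 8 libraries were above the floor and 4 were at 0. Replicate 5 held most of the 30-month counts, so the ratio of summed counts rests largely on it. Without that library, the mean of Col20a1 in 30m xNMJ went from 2.02 to 1.23 TPM. With 1 library left out, its log2 fold change, 4.80 over all libraries, ranged from 4.01 to 6.89. Without replicate 5, the library with synaptic RNA, the adjusted p of Col20a1 was 0.10. It was 0.062 without 30m xNMJ replicate 2 and 0.065 to 0.092 when any of the 8 10m xNMJ libraries was left out. In a fit of the xNMJ groups alone, 17 chains could be tested and 0 passed. Col20a1 was not among the 17, since 2 of the xNMJ libraries reached 1 CPM before TMM scaling. It had entered the test through its level in NMJ.

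Of the other chains with an unadjusted p under 0.05 in xNMJ, Col1a2, Col15a1, Col18a1 and Col24a1 had lower values and Col4a5 a higher one at 30 months. Col4a5 and Col24a1 could not be tested in the xNMJ groups alone and had entered through their levels in NMJ. For each, 1 library stood far above the rest. These were 30m xNMJ replicate 4 for Col4a5 (11.4 CPM, next 0.446) and 10m xNMJ replicate 5 for Col24a1 (6.59 CPM, next 1.34). Col18a1 was at −1.50 (SE 0.45, adjusted p = 0.26), or −2.0 (adjusted p = 0.097) without replicate 5. Col1a2 was at −0.81 (SE 0.25, adjusted p = 0.29), with all 8 30m xNMJ libraries below the 10m median. Col15a1 was at −2.10 (SE 0.67, adjusted p = 0.30). No chain passed in xNMJ without replicate 5. Over all 32 chains in xNMJ, 17 had a value below 0 and 15 above, with a median of −0.08 beside 0.04 for all genes. The test of a difference between the regions in their change with age passed for no chain (edgeR), and the smallest unadjusted p was 5.8e-05 for Col20a1 (adjusted p = 0.40).

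Genes for collagen synthesis and processing, a list of 34 that holds enzymes, chaperones, cross-linkers and other proteins, were then placed beside the chains. Of 30 tested, 7 rose and 0 fell in NMJ at 10 months, and 5 rose and 0 fell at 30 months (6 rose without replicate 5, with Bmp1 in addition), where 6.5% and 5% of all genes rose. Their median log2 fold changes were 0.95 and 0.67, beside 0.00 and −0.01 for all genes. The 7 were Fkbp10, P4hb, Bmp1, P4ha1, Crtap, Plod1 and Sparc. P4ha1 and P4hb, the subunits of prolyl 4-hydroxylase, passed at both ages, with log2 fold changes of 1.94 (adjusted p = 0.0068) and 1.76 (adjusted p = 0.017) for P4ha1 and 1.22 (adjusted p = 8.3e-04) and 1.24 (adjusted p = 8.7e-04) for P4hb. Bmp1, which trims procollagen, had 3.41 (adjusted p = 0.0045) and 2.21 (adjusted p = 0.073). Crtap, a partner of prolyl 3-hydroxylase, had 3.04 (adjusted p = 0.013) and 1.10 (adjusted p = 0.48). Plod1, a lysyl hydroxylase, had 1.05 (adjusted p = 0.019) and 0.53 (adjusted p = 0.34). Sparc, a matrix protein that binds collagen, passed at both ages with 1.06 (adjusted p = 0.027) and 1.15 (adjusted p = 0.019). The other genes called at 30 months were Pcolce, the enhancer of Bmp1 on procollagen, with 2.09 (adjusted p = 0.0044), and Ppib, a prolyl isomerase, with 1.24 (adjusted p = 0.037).

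Fkbp10, a chaperone of procollagen, was at 0 in all 8 10m xNMJ libraries and had 0.879, 3.71 and 9.09 CPM in 10m NMJ (adjusted p = 1.0e-04). In the 30-month groups it had 0, 0.797 and 16.2 CPM in xNMJ and 0.967, 2.70 and 6.46 CPM in NMJ, with a log2 fold change of −0.26 (adjusted p = 0.90). Its highest 30m xNMJ library was replicate 2. Between the ages within xNMJ, Fkbp10 was the 1 gene of the list that passed, higher at 30 months (adjusted p = 0.031, or 0.043 without replicate 5), and 0 passed within NMJ. That call was lost without 30m xNMJ replicate 2 or 10m xNMJ replicate 2, 3, 4 or 5 (adjusted p 0.051 to 0.063). It was also lost with a block of replicate numbers across the ages and with limma on log2(TPM + 1) or log2(TPM + 0.1). In a fit of the xNMJ groups alone Fkbp10 could not be tested, so it had entered the test through its level in NMJ. Serpinh1, the collagen chaperone of the endoplasmic reticulum, had log2 fold changes of 1.10 (adjusted p = 0.12) and 1.17 (adjusted p = 0.10).

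Collagen receptors were the other list. Of 12 tested genes out of 13, 3 rose at 10 months (Adgrg6, Itga2 and Cspg4), 4 at 30 months (Adgrg6, Itgb1, Cspg4 and Ddr2) and 0 fell, with medians of 0.45 and 1.12. Over all genes 6.5% and 5% rose. Without 30m xNMJ replicate 5, 2 rose at 30 months, and Ddr2 (adjusted p = 0.071) and Cspg4 (adjusted p = 0.054) did not pass. Adgrg6, a receptor of Schwann cells that binds type IV collagen, had 4.61 (adjusted p = 0.0010) and 3.16 (adjusted p = 0.015). Itga2, an integrin subunit for fibrillar collagen, had 3.60 (adjusted p = 0.0055) and 2.38 (adjusted p = 0.069), and the proteoglycan Cspg4 had 1.92 (adjusted p = 0.019) and 1.79 (adjusted p = 0.036). Itga1, for type IV collagen, had 0.77 (adjusted p = 0.080) and 0.73 (adjusted p = 0.12).

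Markers of other cells moved with the regions. Fibroblast and fibro-adipogenic markers summed to medians of 125 and 951 TPM in xNMJ and NMJ at 10 months, and 135 and 945 TPM at 30 months. Dcn, the most abundant gene in each group, had log2 fold changes of 2.88 (adjusted p = 5.1e-09) and 2.78 (adjusted p = 2.0e-08). Of the 7 markers, Dcn, Lum, Pdgfra and Gsn rose at both ages, whereas Cd34, Dpt and Pi16 did not pass. Schwann cell markers summed to 1.5, 93.9, 1.07 and 60.0 TPM in the same order of groups, with Mbp as the most abundant gene in each. Of these 4, Mbp, S100b and Sox10 rose at each age and Ngfr did not pass. Macrophage markers summed to 2.89, 34.1, 2.23 and 28 TPM. Of the 4 macrophage genes, 2 rose at each age, Mrc1 in both and Cd68 or Adgre1 in 1, and Adgre1 was at 0 in all 30m xNMJ libraries. The part of these cells in the collagen differences was not tested.

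The other marker lists went different ways. Endothelial markers summed to 26.4, 24.8, 27.0 and 19.4 TPM in the order used above, with 0 of 5 higher at either age and Cdh5 lower at 30 months. Pericyte and smooth muscle markers summed to 47.2, 51.2, 43.4 and 64.5 TPM, with 0 of 5 higher and Rgs5 lower at 30 months. Tendon markers summed to 55.5, 42.1, 45.2 and 43.8 TPM, and Mkx was lower in NMJ at both ages. Satellite cell markers summed to 5.17, 34.3, 5.91 and 25.1 TPM, which was mostly Sdc4, the 1 of 2 tested markers that rose, while Pax7 did not pass. Perineurial markers stayed under 7 TPM in every library, and Cldn1, at 0 in all 10m xNMJ libraries, passed at 10 months, and also at 30 months without replicate 5 (adjusted p = 0.0062).

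**Figure D5:**
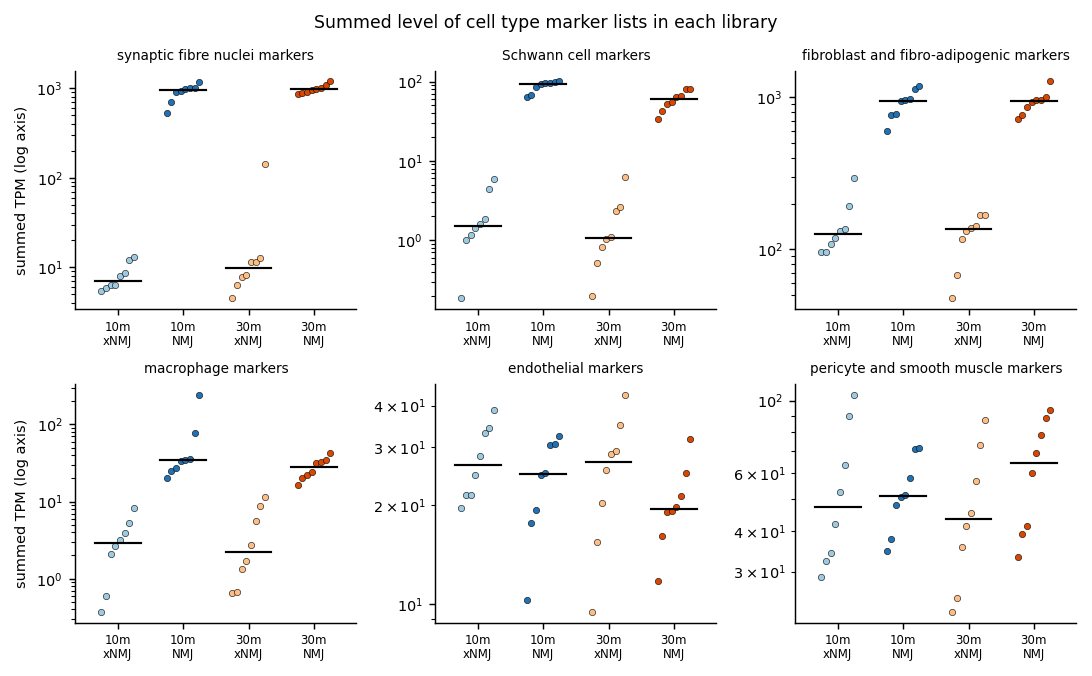
Summed TPM (log axis) of 6 marker lists, with 1 point per library and a line at the median of each group of 8. Schwann cell, fibroblast and macrophage sums of NMJ libraries lie above those of xNMJ libraries of the same age, endothelial and pericyte sums overlap, and the single 30m xNMJ library at 144 TPM in the synaptic panel is replicate 5.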

How the data were processed

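RNA of laser-captured regions was amplified with the SMART-Seq v4 kit and sequenced in 32 libraries. According to the submitters' processing notes, Cutadapt 1.9.1 and kallisto 0.43.1 were used on GRCm38. The study's methods give an index of protein-coding transcripts and reads without strand. Deposited gene counts were whole numbers although the methods divide a read between its transcripts, so they had been rounded or counted per gene. TPM values were computed by the authors by dividing transcript counts by length. All 32 columns of each table matched a sample and 0 were left over.

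Counts were tested with edgeR 4.0.16 (limma 3.58.1, R 4.3.3) by quasi-likelihood in 1 fit of the 4 groups. Genes with at least 1 CPM, before TMM scaling, in at least 8 libraries were tested. TMM factors were used, and 5 comparisons were made with Benjamini-Hochberg adjustment over all 13990 genes at 0.05, two-sided. TPM sums and ratios within trimers are descriptions without a test. Between 2 replicates, chi-square per gene was at least 21.4, so no library appeared to be deposited more than once. Alternatives were DESeq2 size factors, DESeq2 1.42.0, no filter, at least 10 CPM in at least 8 libraries, a replicate block, fits of only the compared groups, insert size as a covariate, limma on log2(TPM + 1) and log2(TPM + 0.1), and each library left out. For class sums the alternatives were CPM in place of TPM and leaving out the top chain. The replicate block joined libraries of the same age and number in the region comparisons and the interaction. Between the ages it joined libraries of the same number across both ages, which the labels do not tie together. Library totals in place of TMM, and class ratios and chain order without single libraries, were added after the data had been seen. The fits were tested on simulated data.

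Every chain was named. Full values were given for up to 12 chains with the smallest p among those that passed and for a preset list of 10, and up to 6 genes by p, with Fkbp10, from each of the lists of synthesis genes and receptors. Other genes were named after their values were seen. Chains, classes and all lists were chosen with earlier results of these data known. Of the Schwann cell markers, 2 are not reported here, irrespective of their values, and were left out of the sums. Gene coordinates were taken from GENCODE M21 and figures drawn with matplotlib 3.10.9.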

Additional observations from a re-analysis of the deposited data

Results flagged for a closer look

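Within groups of 8, the gap of the highest or lowest library to its neighbor was compared with Dixon's 95% critical value for 32 chains in 4 groups. Of 128 such groups 13 passed, and chance gives about 1 in 20 for normally distributed values. For chains near 0 that rate does not hold. A group with 1 library above 0 and the rest at 0 always passes, as Col20a1 did in 10m xNMJ.

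In xNMJ these were mostly chains near 0 with 1 library well above the rest. At 10 months, Col4a3 was at 11.8 CPM in replicate 3 (next 2.55), Col24a1 at 6.59 CPM in replicate 5 (next 1.34), Col9a1 at 5.07 CPM in replicate 4 (next 1.12) and Col11a2 at 4.21 CPM in replicate 5 (next 0.933). Lower levels of this kind were 1.87 CPM for Col9a2 in replicate 1 (next 0.232), 1.56 CPM for Col13a1 in replicate 1 (next 0.463) and 0.247 CPM for Col20a1 in replicate 4 (next 0). At 30 months, Col4a4 was at 12.5 CPM in replicate 6 (next 1.92), Col4a5 at 11.4 CPM in replicate 4 (next 0.446), Col12a1 at 7.69 CPM in replicate 7 (next 0.874) and Col6a3 at 5.76 CPM in replicate 1 (next 1.33).

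The other flags were in 10m NMJ, where Col4a1 reached 150 CPM in replicate 2 (next 98.9) and Col6a1 was lowest in replicate 6 with 5.44 CPM (next 16.6). Replicate 5 of 30m xNMJ, the library with synaptic RNA, was not among them.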

How the results depend on the processing

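For NMJ against xNMJ at 10 months, the 20 chains that rose became 15 (insert size as covariate) to 26 (library totals), with 18 to 21 when 1 library was left out. At 30 months the 11 chains became 18 with DESeq2, 21 and 20 with limma on log2(TPM + 1) and log2(TPM + 0.1), 20 with library totals and 9 to 15 otherwise, or 10 to 14 with 1 library left out. Calls over all genes moved too, at 30 months from 700 higher and 595 lower to 942 and 769 with DESeq2 and to 3501 and 60 or 3627 and 54 with limma, so 25% and 25.9% of all genes were then higher. No alternative called a chain lower at either age. Within xNMJ, the 1 chain that passed between the ages, Col20a1, was lost (0 chains) with a block of replicate numbers across the ages, insert size and both limma fits. With only the compared groups the count was also 0, but Col20a1 was not tested there. The count was 0 to 1 with 1 library left out. In the interaction, the count of 0 became 1 with DESeq2. The age value of Col6a2 in xNMJ (0.10) turned to −0.21 with insert size and ranged from −0.36 to 0.41 with 1 library left out. The cause of these shifts was not tested.

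The labels do not say that shared numbers pair the libraries, and they were not treated as pairs. Deviations of same-numbered libraries correlated at −0.02 to 0.42, over 0.1 in 6 of 16 pairs. As a hint of pairing from the data, 14 of the 16 correlations lay above the mean with other numbers, and 8 of 16 xNMJ libraries correlated best with their own number. The methods speak of both kinds of region per sample, without numbers. With the replicate block, which joined libraries of the same age and number, 20 and 15 chains rose at 10 and 30 months, beside 7.38% and 6.22% of all genes. At 10 months Col5a1 and Col28a1 no longer passed, and Col6a3 and Col8a1 did. At 30 months Col11a1 no longer passed, and Col3a1, Col4a3, Col4a4, Col6a1 and Col27a1 did, which makes 3 of 5 type IV chains. For the comparisons between the ages, the block joined libraries of the same number across both ages. With that block Fkbp10 no longer passed in xNMJ (edgeR adjusted p = 0.22). The labels do not tie numbers across ages, so that loss says nothing about pairing of the regions.

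Class sums, as mean differences of log2(sum + 1) between NMJ and xNMJ, which are smaller than the ratios of means for low classes, moved by more than 1 SD between libraries as follows. All chains went from 2.96 and 2.81 at 10 and 30 months to 1.89 and 1.56 with CPM in place of TPM, and to 2.24 and 1.99 without the most abundant chain. FACIT went from 5.90 and 4.97 to 4.15 and 3.70 with CPM and to 2.40 and 2.82 without Col20a1. Type IV at 30 months went from 1.36 to 0.91 with CPM and to 1.89 without Col4a1. Multiplexins went from 2.53 and 2.74 to 1.35 and 1.68 without Col15a1 and, at 30 months, to 3.49 with CPM. Without the most abundant chain, transmembrane chains went from 2.29 and 1.89 to 0.65 and 0.18, short-chain network formers from 1.11 and 0.85 to 0.16 and −0.055, and the class of other chains from 1.37 to 0.57 at 10 months. The anchoring fibril chain moved within 1 SD but turned from 0.24 to −0.37 at 30 months with CPM, where the ratio of means was 0.768. The remaining class differences kept their sign in these settings.

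Single chains near the threshold also changed. With insert size, Col5a1, Col9a2, Col4a1, Col4a4 and Col28a1 no longer passed at 10 months. Calls over all genes in xNMJ between the ages went from 6 to between 0 and 84 (DESeq2), and those at 10 months from 909 higher and 706 lower to 701 and 434 with insert size and to 2681 and 237 or 2786 and 228 with limma. With only the compared groups, Col5a2 no longer passed at 30 months (adjusted p = 0.069). Chains with libraries at or near 0, such as Col4a5 and Col12a1, varied widely between libraries. At this depth, levels under 3 counts per library were not detectable.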

Other observations

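Chain ratios of type VI collagen, in TPM, varied widely between libraries. The ratio of Col6a1 to Col6a2 had medians of 1.9 and 0.534 in xNMJ at 10 and 30 months and of 0.844 and 1.18 in NMJ, and it ranged from 0 to 29.5 in 10m xNMJ. Medians of Col6a3 to Col6a2 were 0.484, 0.144, 0.520 and 0.291 in the same order.

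Other pairs of type IV genes also lie head to head. The starts of Col4a4 and Col4a3 on chromosome 1 have 71 bases between them, and those of Col4a6 and Col4a5 on the X chromosome 1308 bases. Col4a3 and Col4a4 both rose at 10 months, whereas Col4a6 was too low to judge beside Col4a5.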
